A study of Mus musculus with 28 samples.

Results

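DFMO-treated Th17n cells of wild-type (WT) mice were set against untreated iTreg cells of the same mice, over all genes, to measure how far the treated Th17n cells remained from iTreg cells. The comparison took 8 of the 28 RNA-seq libraries of the series by their labels: 4 libraries of Th17n cells cultured with DFMO and 4 libraries of iTreg cells cultured without it, paired by animal number. All 28 libraries were made from spleen CD4 T cells of C57BL/6 mice. Naive CD4 cells were sorted, stimulated on plates coated with anti-CD3 and anti-CD28 antibodies at 1 µg/ml each, and harvested at 68 h as live cells. Th17n cells, the non-pathogenic kind of Th17 cell, were cultured with IL-6 at 25 ng/ml plus TGF-beta1 at 2 ng/ml, and iTreg (induced regulatory T) cells with TGF-beta1 at 2 ng/ml alone. DFMO, an irreversible inhibitor of ornithine decarboxylase, was used at 100 µM. The groups compared therefore differed both in IL-6 and in DFMO, and a difference between them cannot be assigned to either alone. Beside them stand 3 further kinds of library: DFMO-treated iTreg cells and untreated Th17n cells of the same 4 WT animals, and the same cultures from 3 animals (KO) of genotype JMJD3fl/fl CD4cre, in which the floxed JMJD3 gene, Kdm6b, is deleted in T cells. Each animal gave 1 library per culture, and the labels give no age or sex.

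Naive CD4 T cells that are activated with TGF-beta can switch on Foxp3 and become suppressive iTreg cells, while IL-6 acting through STAT3 diverts them to the Th17 fate and the IL-17 cytokines. Ornithine decarboxylase makes putrescine, from which spermidine and spermine are built. Spermidine also supplies the hypusine residue of the translation factor eIF5A, so polyamine supply touches growth and translation as well as T cell fate.

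About as many genes differed between DFMO-treated Th17n and untreated iTreg cells as did not. Of 10985 genes tested, 5464 differed from untreated iTreg cells at an adjusted p under 0.05 in edgeR's quasi-likelihood test, which is 49.7% of the genes tested. Of these, 2589 were higher in DFMO-treated Th17n cells (23.6% of genes tested) and 2875 were lower (26.2%). These shares are the background for the gene lists below, and a count near them is no result about its list. Which direction held more genes depended on the processing. There were 2937 higher and 2389 lower without a filter, and 2771 and 2248 without WT animal 4. With RLE scaling there were 2704 and 2742, and with TPM 2136 and 2219. At least 2-fold differences were found in 1727 (15.7%), 728 higher (6.63%) and 999 lower (9.09%). The direction was the same in all 4 animals for 5060 of the 5464 genes, and the groups did not overlap in CPM (counts scaled to library size) for 4290. Both counts were taken only among genes already called on the same values, which favours them, so they add no separate support. The estimated counts behind these values summed to 3590879 to 4496220 per DFMO-treated Th17n library and 2792847 to 4753768 per untreated iTreg library, and mitochondrial genes took 0.752% to 1.703% and 0.968% to 1.425% of them. The median log2 fold change over all genes tested was -0.0429. The scaling of the libraries centres the fold changes, so this median cannot show whether all genes shifted. Within the untreated iTreg group the libraries of animals 1 and 3 stood apart from those of animals 2 and 4 in some genes, given below where they matter; no label separates these animals.

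The untreated Th17n cells gave 4706 genes against the same iTreg libraries (42.8% of genes tested), 2339 higher (21.3%) and 2367 lower (21.5%). At matched treatment, DFMO-treated Th17n cells differed from DFMO-treated iTreg cells in 3507 genes (31.9%), 1561 higher (14.2%) and 1946 lower (17.7%). That balance depended on the processing, with 2163 higher and 729 lower with TPM, 1874 higher and 1465 lower without a filter, and 2315 genes in all with the compared groups alone. These comparisons share libraries with the main one and are given side by side, without a test between them. Within each animal, the median absolute log2 CPM difference over all genes tested was 0.434 to 0.456 between DFMO-treated Th17n and untreated iTreg cells, with a mean of 0.44 ± 0.0103 (SD, n = 4 animals). It was 0.395 ± 0.0276 between untreated Th17n and untreated iTreg cells, and smaller than the DFMO value in 4 of 4 animals. It was 0.353 ± 0.0345 between the DFMO-treated cultures. The root mean square difference, which weighs large differences more, was 0.956 ± 0.0395 for DFMO-treated Th17n cells and 0.93 ± 0.052 for untreated Th17n cells against untreated iTreg cells. It was larger with DFMO in 3 of 4 animals, and in animal 2 it was 0.93 with DFMO and 0.986 without. In KO animals it was smaller with DFMO in 3 of 3, at 0.943 to 0.977 with DFMO and 0.997 to 1.03 without, while the median was 0.43 to 0.467 with DFMO and 0.424 to 0.438 without. Untreated Th17n libraries summed to 4561014 to 4759290 estimated counts in WT, against 3590879 to 4496220 with DFMO. In KO they summed to 2226914 to 4143568, against 3957830 to 4732039 with DFMO. The part of depth in these distances was not tested. By both measures DFMO-treated Th17n cells stood further from untreated iTreg cells than libraries within these groups did from each other, which differed from each other by a median of 0.185 to 0.24 among DFMO-treated Th17n cells and 0.193 to 0.272 among untreated iTreg cells, and by a root mean square of 0.469 to 0.522 and 0.457 to 0.595 in the same groups. DFMO-treated iTreg libraries differed among themselves by a median of 0.218 to 0.34. The 0.327 and 0.329 measured between the DFMO-treated cultures of animals 1 and 2 lay inside that range.

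**Figure D1:**
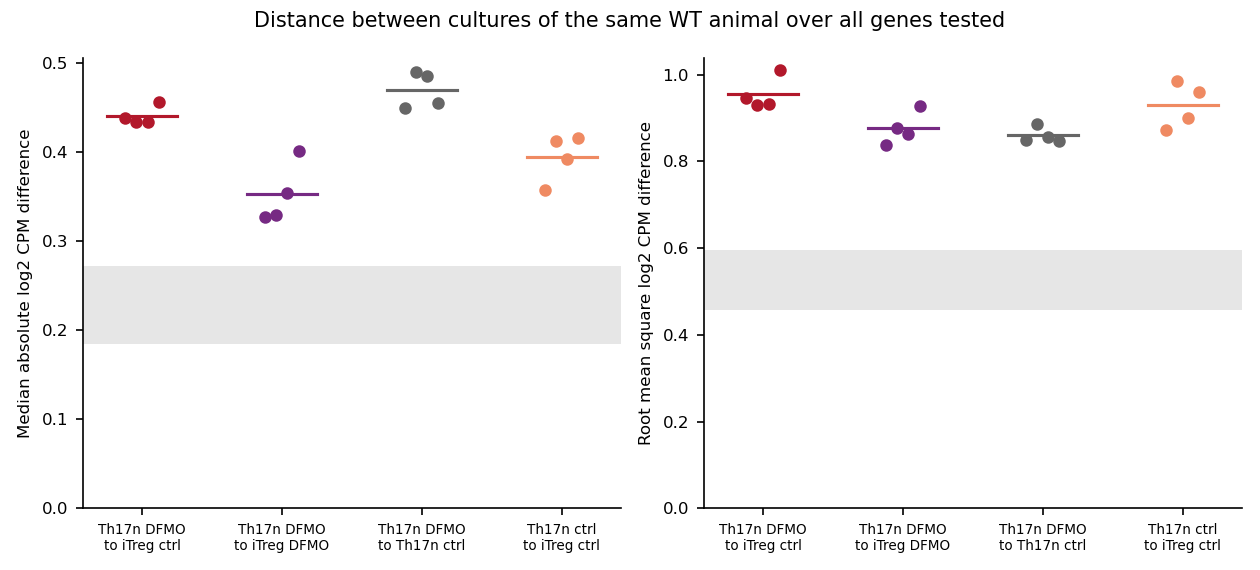
Distance between cultures of the same WT animal over 10985 genes, as the median absolute (left) and root mean square (right) log2 CPM difference. Each point is 1 animal, bars mark means, and the grey band spans pairs of libraries within the DFMO-treated Th17n or the untreated iTreg group only, not the DFMO-treated iTreg group, whose libraries differ by a median of up to 0.34. By the median the DFMO-treated Th17n cells lie further from iTreg cells than the untreated ones in each animal.

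Both groups carried the marks of their labels. T cell genes summed to 2820 to 3250 CPM in DFMO-treated Th17n libraries and 2660 to 3020 CPM in untreated iTreg libraries. Cd4 itself, the co-receptor of helper T cells, stood at 254, 274, 264 and 292 CPM in DFMO-treated Th17n cells and 596, 496, 642 and 629 CPM in untreated iTreg cells, lower in the treated Th17n cells in every animal (log2 fold change -1.12 ± 0.08, SE). Of the 8 T cell genes tested, Cd5 and Cd28 were higher (1.52 and 0.27) and Cd3d, Cd3g, Cd3e and Thy1 lower, from -0.69 to -0.21. Of the markers of other cells, the NK cell genes Ncr1, Klrb1c and Klra8 were at 0 in both groups. B cell markers summed to 0.78 to 3.18 CPM in treated Th17n cells, with Pax5 at 0, and to 6.05 to 14.6 CPM in untreated iTreg cells, and dendritic cell markers to 1.61 to 5.3 and 10.2 to 14.3 CPM.

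The Treg programme was lower in DFMO-treated Th17n cells than in untreated iTreg cells. Of 26 listed genes, 22 passed the filter on low counts. Of these, 13 were lower, 3 were higher and 6 did not pass the test. The median log2 fold change of the 22 was -0.821 against -0.0429 over all genes. In untreated Th17n cells 9 were higher and 7 lower against the same iTreg libraries (median 0.245). At matched treatment 6 were higher and 10 lower (median -0.205). Foxp3, the transcription factor that defines regulatory T cells, reached 28.9, 38.8, 40.8 and 39.8 CPM in animals 1 to 4 in DFMO-treated Th17n cells, against 216, 339, 236 and 335 CPM in their untreated iTreg cells. The groups did not overlap, and every treated Th17n library lay far below every iTreg library. Foxp3 was 7.52-fold lower (log2 fold change -2.91 ± 0.16, SE; adjusted p = 6.01e-14 in edgeR). Untreated Th17n cells had 14.7, 6.77, 10.2 and 6.92 CPM, and their difference from iTreg cells was -4.83 ± 0.19. In bulk RNA, fewer Foxp3-expressing cells and less Foxp3 RNA per cell cannot be told apart.

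Lrrc32, Tnfrsf9 and Tnfrsf18 were lower in DFMO-treated Th17n cells than in both untreated cultures, by -2.40, -3.15 and -1.55 (log2) against untreated Th17n cells. Lrrc32 (GARP), which holds latent TGF-beta on the Treg surface, stood at 8.75, 16.5, 7.8 and 14 CPM in DFMO-treated Th17n cells and 81.3, 101, 67.6 and 43.2 CPM in untreated iTreg cells (log2 fold change -2.65 ± 0.20), while untreated Th17n cells had 54.1, 77.2, 50.4 and 66 CPM and did not pass the test against iTreg cells (-0.25 ± 0.17). Tnfrsf9 (4-1BB), a costimulatory receptor of activated Treg cells, had 108, 97.5, 150.3 and 127 CPM in treated Th17n cells, 916, 1099, 1097 and 1125 CPM in untreated Th17n cells and 492, 369.6, 451 and 573 CPM in untreated iTreg cells. The treated cells were thus below iTreg cells (-1.97 ± 0.11) and the untreated ones above (1.18 ± 0.11). Tnfrsf18 (GITR), another such receptor, stood likewise at -1.20 with DFMO and 0.35 without. Tnfrsf9 overlaps Camta1 in the annotation, and Foxp3 overlaps Ccdc22 and Ppp1r3f, so reads of these genes may be shared. Ikzf2 (Helios), a Treg transcription factor, was by contrast lower in both Th17n cultures (-2.32 ± 0.19 with DFMO, -2.77 ± 0.19 without).

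Against the direction of the list, 3 Treg genes were higher in DFMO-treated Th17n cells. Il10, an anti-inflammatory cytokine that Th17n cells also make, had 7.16, 12.8, 10.1 and 7.8 CPM in treated Th17n cells and was at 0 in all 4 untreated iTreg libraries, 153 against 0 estimated counts, which is at least 49.8-fold higher by a floor of 3 counts over the group. Gpr83, an orphan receptor of Treg cells, stood at 124, 118, 135 and 118 CPM against 46.2, 64.2, 50.2 and 64.5 CPM (1.14 ± 0.12). Il2ra (CD25), the high-affinity IL-2 receptor chain, was slightly higher (0.33 ± 0.05). Ctla4, the inhibitory receptor, did not pass the test (0.21 ± 0.09, adjusted p = 0.0529 in edgeR).

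The Th17 cytokines remained high in DFMO-treated Th17n cells. All 9 listed genes passed the filter, 8 were higher than in untreated iTreg cells and none was lower, with Tgfb3, a TGF-beta that Th17 cells produce, not passing the test. Their median log2 fold change was 7.04, or 5.13 with Il10 and Il22 set at their lower bounds. Il17f stood at 259, 642, 372 and 733 CPM in DFMO-treated Th17n cells against 0, 4.74, 0.789 and 11.2 CPM in untreated iTreg cells (7.04 ± 0.27, adjusted p = 1.99e-17 in edgeR). Il17a, its paired cytokine, stood at 36.8, 27.5, 45.2 and 112 CPM against 0, 0.988, 0 and 0 CPM (7.19 ± 0.48). Il21, an autocrine Th17 and Tfh cytokine, stood at 340.3, 353, 305 and 266 CPM against 0, 0, 0.526 and 1.39 CPM (9.59 ± 0.23). None of these groups overlapped. In untreated Th17n cells Il17a had 58.2, 169, 128 and 251 CPM, Il17f 620.0, 1024, 689.5 and 1332 CPM and Il21 287, 251, 256 and 233 CPM.

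Il22, which acts on epithelia, was detected with 108 estimated counts in treated Th17n cells and 0 in untreated iTreg cells, at least 35.1-fold higher. Il24, a cytokine of the IL-10 family, was higher by 3.51 ± 0.23, and Ccl20, the ligand of CCR6, by 4.13 ± 0.29, both as log2 fold changes. Ccl20 averaged 42.3 CPM in DFMO-treated Th17n cells, 9.35 CPM in untreated Th17n cells and 2.45 CPM in untreated iTreg cells. Lif, another cytokine of the IL-6 family, was higher by 1.08 ± 0.11. Tgfb3 averaged 4.66 CPM in treated Th17n cells, 90.0 CPM in untreated Th17n cells and 3.62 CPM in untreated iTreg cells, and its difference of 0.47 ± 0.35 did not pass the test (adjusted p = 0.278 in edgeR).

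Most of the Th17 receptors tested were higher too. Of 14 listed, 13 were tested, 8 were higher, 1 was lower and 4 did not pass. Il23r, the receptor chain through which IL-23 stabilises Th17 cells, was low but present, at 3.18, 5.07, 4.94 and 3.77 CPM in DFMO-treated Th17n cells against 0, 0, 0.263 and 0 CPM in untreated iTreg cells. The 68 estimated counts against 1 give a ratio of 66.4, with a 95% counting interval of 11.5 to 2660. Untreated Th17n cells had 13, 10.6, 10.2 and 15.2 CPM. Ltb4r1, the leukotriene B4 receptor, gave 451 estimated counts against 1, a ratio of 440 (78.6 to 17400), and Cd5l, a lipid regulator that marks non-pathogenic Th17 cells, stood at 45.3, 52, 45 and 44.1 CPM against 0.242, 3.36, 1.58 and 2.44 CPM (4.61 ± 0.29). Il12rb1, the receptor chain shared by IL-12 and IL-23, was higher by 1.35 ± 0.10. The 1 lower gene was Il1r2, the decoy receptor for IL-1 (-2.06 ± 0.53), and Ccr6, the receptor of Ccl20, did not pass the test (0.16 ± 0.17).

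Promoters of Il17a, Il17f and Il23r are shown because these genes define the Th17 state and move together in this comparison. The windows hold the 250 bases before the RefSeq transcription start on GRCm38.p6, read 5′ to 3′ on the strand of the gene: Il17a at chr1:20730655-20730904 (+ strand), Il17f at chr1:20784271-20784520 (- strand) and Il23r at chr6:67491856-67492105 (- strand). Capitals mark AGGTCA or its reverse TGACCT, the core of the element bound by factors such as Rora, the retinoid-related receptor of Th17 cells, searched on both strands with overlapping matches allowed.
Il17a: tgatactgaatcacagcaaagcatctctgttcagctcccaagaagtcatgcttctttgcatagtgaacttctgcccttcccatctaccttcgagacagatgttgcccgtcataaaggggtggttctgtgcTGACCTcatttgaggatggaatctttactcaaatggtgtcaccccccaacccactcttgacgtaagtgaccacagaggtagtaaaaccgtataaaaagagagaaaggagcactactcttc
Il17f: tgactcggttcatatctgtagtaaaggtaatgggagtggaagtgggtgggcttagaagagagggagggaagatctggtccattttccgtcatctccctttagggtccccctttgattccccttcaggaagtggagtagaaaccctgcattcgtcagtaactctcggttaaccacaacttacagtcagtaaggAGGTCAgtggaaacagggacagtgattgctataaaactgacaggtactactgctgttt
Il23r: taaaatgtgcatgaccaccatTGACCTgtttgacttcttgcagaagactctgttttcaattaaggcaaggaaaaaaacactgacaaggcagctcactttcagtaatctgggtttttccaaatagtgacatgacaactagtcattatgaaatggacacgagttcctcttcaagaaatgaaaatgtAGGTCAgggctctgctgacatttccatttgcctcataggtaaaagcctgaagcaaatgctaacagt
Il17a and Il17f hold 1 match each and Il23r holds 2. Such a match occurs in 14% of all 32851 windows, in 3 of the 6 windows of Th17 cytokine genes (50%; Ccl20, Il17a and Il17f) and in 4 of the 20 windows of 13 Th17 receptor genes (20%; Ccr6, Il1rn, Il21r and Il23r). A match describes letters only.

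Th17 transcription factors stayed above iTreg levels. All 18 listed genes were tested, 14 were higher, 2 were lower and 2 did not pass, with a median log2 fold change of 1.13. Maf, which drives Il10 and Il21 in Th17 cells, stood at 28.6, 34.1, 42.9 and 49.2 CPM in DFMO-treated Th17n cells and 2.42, 3.36, 2.63 and 2.09 CPM in untreated iTreg cells (3.79 ± 0.22). Irf4 and Batf, which act together at Th17 genes, were higher by 1.69 ± 0.10 and 1.30 ± 0.09, the AP-1 factor Fosl2 by 2.21 ± 0.13, the chromatin organiser Satb1 by 1.49 ± 0.10 and the aryl hydrocarbon receptor Ahr by 2.52 ± 0.29. Rora was higher by 0.96 ± 0.14, against 2.23 ± 0.14 in untreated Th17n cells. The lower members were Nfkbiz, a nuclear IκB protein (-0.46 ± 0.12), and Ikzf1, an Ikaros family factor (-0.32 ± 0.10), which lost its call in 7 alternative settings.

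**Figure D2:**
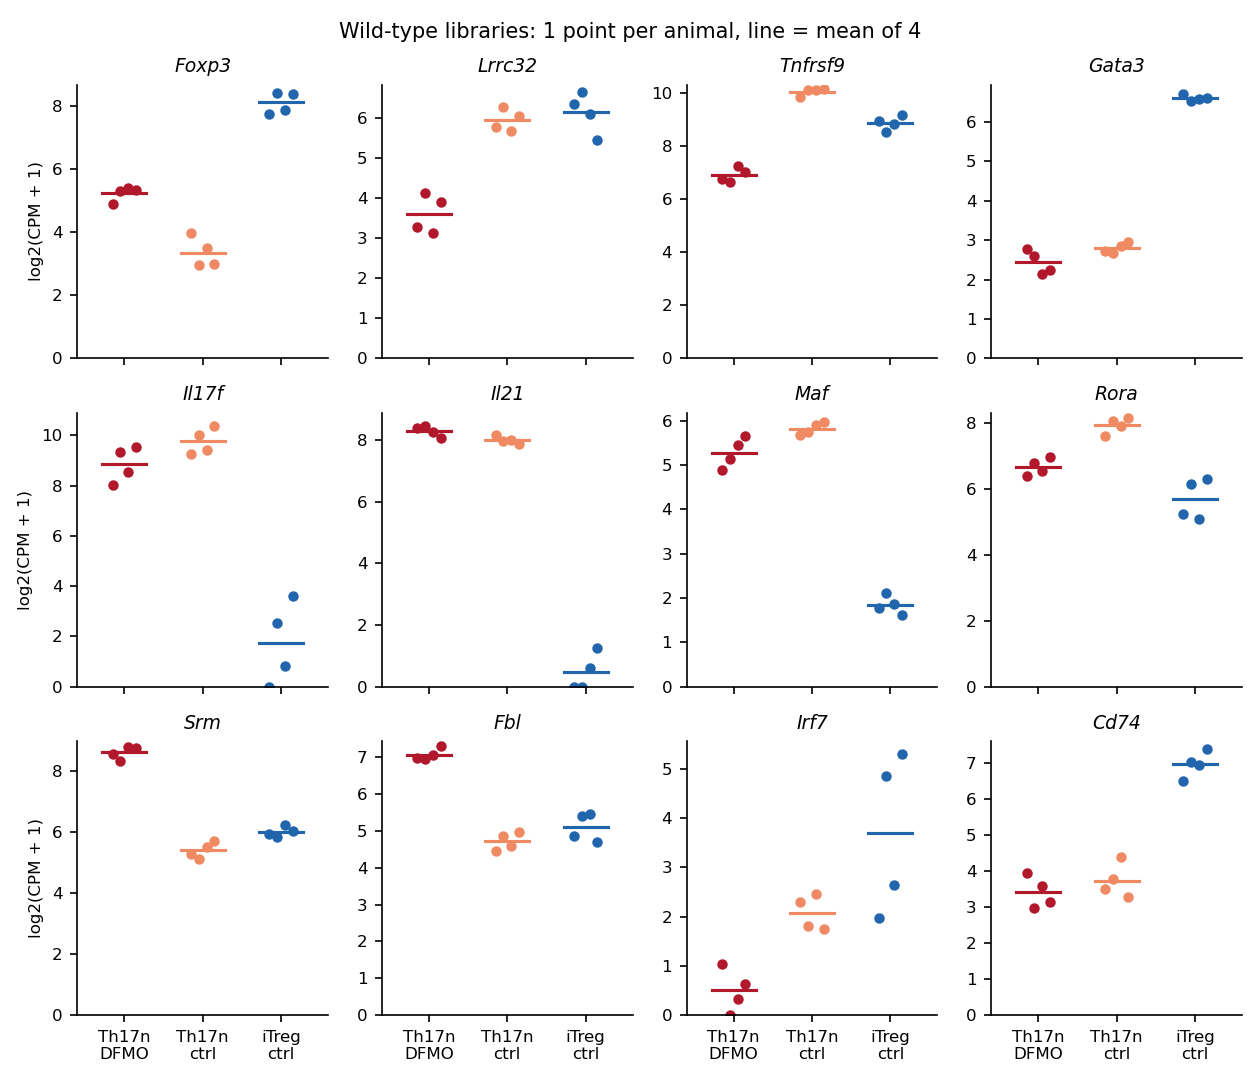
Levels of 12 genes as log2(CPM + 1) in DFMO-treated Th17n, untreated Th17n and untreated iTreg cells of the 4 WT animals; points are animals and lines are means. Foxp3 and Lrrc32 are lower and Il17f, Il21, Maf and Rora higher in DFMO-treated Th17n than in iTreg cells, while Srm and Fbl are higher in the DFMO-treated Th17n cells than in both untreated cultures.

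Cytokine response genes moved in both directions. Of 16 IL-6 and STAT3 response genes, 8 were higher and 5 lower. Socs3, the feedback inhibitor of IL-6 signalling, had 204, 241, 197 and 198 CPM in DFMO-treated Th17n cells against 35.1, 39.7, 40.5 and 48.4 CPM in untreated iTreg cells (2.37 ± 0.10), and Il4ra, an IL-4 receptor chain, was higher by 1.16 ± 0.09. Among the lower ones were Pim2 and Pim1, survival kinases (-1.14 and -0.72), the interferon-induced membrane protein Ifitm2 (-1.51) and Tnfrsf1b, a TNF receptor (-0.38). Of 20 TGF-beta response genes tested of 22 listed, 8 were higher, 1 was lower and 11 did not pass. Smad3, a transducer of TGF-beta, was higher by 2.25 ± 0.14, and Id2 and Id1, inhibitors of E proteins, by 2.59 ± 0.16 and 2.06 ± 0.25. Tgm2, tissue transglutaminase, stood at 474, 699, 462 and 536 CPM against 91.3, 87, 62.1 and 129 CPM (2.57 ± 0.15), with 4.35, 5.94, 14.1 and 7.3 CPM in DFMO-treated iTreg cells. Smad7, the feedback inhibitor, did not pass (0.36 ± 0.20), and the lower gene was Ltbp3 (-1.54 ± 0.61), a latent TGF-beta binding protein with a mean of 1.74 CPM or less in both groups, which lost its call in 8 settings.

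IL-2 itself was higher in DFMO-treated Th17n cells. Il2 stood at 146, 157, 164 and 135 CPM in DFMO-treated Th17n cells against 23, 18.6, 13.7 and 9.76 CPM in untreated iTreg cells, and the groups did not overlap (3.17 ± 0.34). Untreated Th17n cells had 13, 19.4, 18.1 and 47 CPM and did not pass the test against iTreg cells (0.52 ± 0.38). Of the 18 IL-2 and STAT5 response genes, 10 were higher, 4 lower and 4 did not pass. Lta (lymphotoxin alpha) and Il2rb, an IL-2 receptor chain, were higher (0.92 ± 0.07 and 0.70 ± 0.07). The 4 lower genes were Foxp3, the cytotoxic granule genes Gzmb and Prf1 (-5.67 ± 0.37 and -1.49 ± 0.62) and the survival gene Bcl2 (-0.27 ± 0.09). Prf1 lost its call in 14 alternative settings, among them no animal block, RLE scaling and DESeq2, and Bcl2 in 9.

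Genes of other helper programmes also differed. Gata3, the Th2 master factor that iTreg cells also use, stood at 5.83, 5.07, 3.38 and 3.77 CPM in DFMO-treated Th17n cells against 105, 91.7, 94.7 and 96.5 CPM in untreated iTreg cells (-4.40 ± 0.17, adjusted p = 2.64e-17 in edgeR). The groups lay far apart, and untreated Th17n cells were as low, at 5.62, 5.42, 6.17 and 6.71 CPM. Il9, the Th9 cytokine, went the other way, at 435, 366, 599 and 573 CPM against 4.6, 16.4, 2.89 and 16.4 CPM (5.56 ± 0.35). It had 58.4, 27.3, 126 and 64 CPM in untreated Th17n cells and 181, 233, 193 and 229 CPM in DFMO-treated iTreg cells. Of 8 Th2 and Th9 genes tested of 17 listed, 5 were higher and 2 lower, the other lower one being the chemokine receptor Ccr8 (-0.56 ± 0.13).

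The Th1 programme was lower, with 9 of 14 tested genes lower, 2 higher and 3 not passing (15 listed, median -1.34). Gzmb (granzyme B) stood at 2.12, 3.74, 3.9 and 3.77 CPM in DFMO-treated Th17n cells against 340.1, 68.6, 246 and 112 CPM in untreated iTreg cells, with the iTreg libraries of animals 1 and 3 the highest. Stat4, the IL-12 signal transducer, stood at 28.9, 33.7, 36.1 and 36.9 CPM against 97.1, 87.2, 98.1 and 114 CPM (-1.55 ± 0.12), and Il18r1, an IL-18 receptor chain, was lower (-2.58 ± 0.26). Tbx21, the Th1 master factor, did not pass (-0.10 ± 0.31). Tnf was higher (1.35 ± 0.12). In KO animals 5 genes of the list were lower and 3 higher (median -0.281). The markers of CD8 T cells, which share cytotoxic genes with this list, summed to 6.1 to 10.1 CPM in DFMO-treated Th17n libraries and 18.7 to 25.4 CPM in untreated iTreg libraries (Cd8b1 -1.39), and those of NK cells to 1.06 CPM or less and 0.198 to 1.69 CPM, with Ncr1, Klrb1c and Klra8 at 0. Their part in the result was not tested. Of 13 Tfh genes tested of 14 listed, 6 were higher and 5 lower. Pdcd1 (PD-1) was higher by 1.19 ± 0.09, and the lower ones were Slamf6, Tox, Sh2d1a, Icos and Tcf7, from -1.80 to -0.50.

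**Figure D3:**
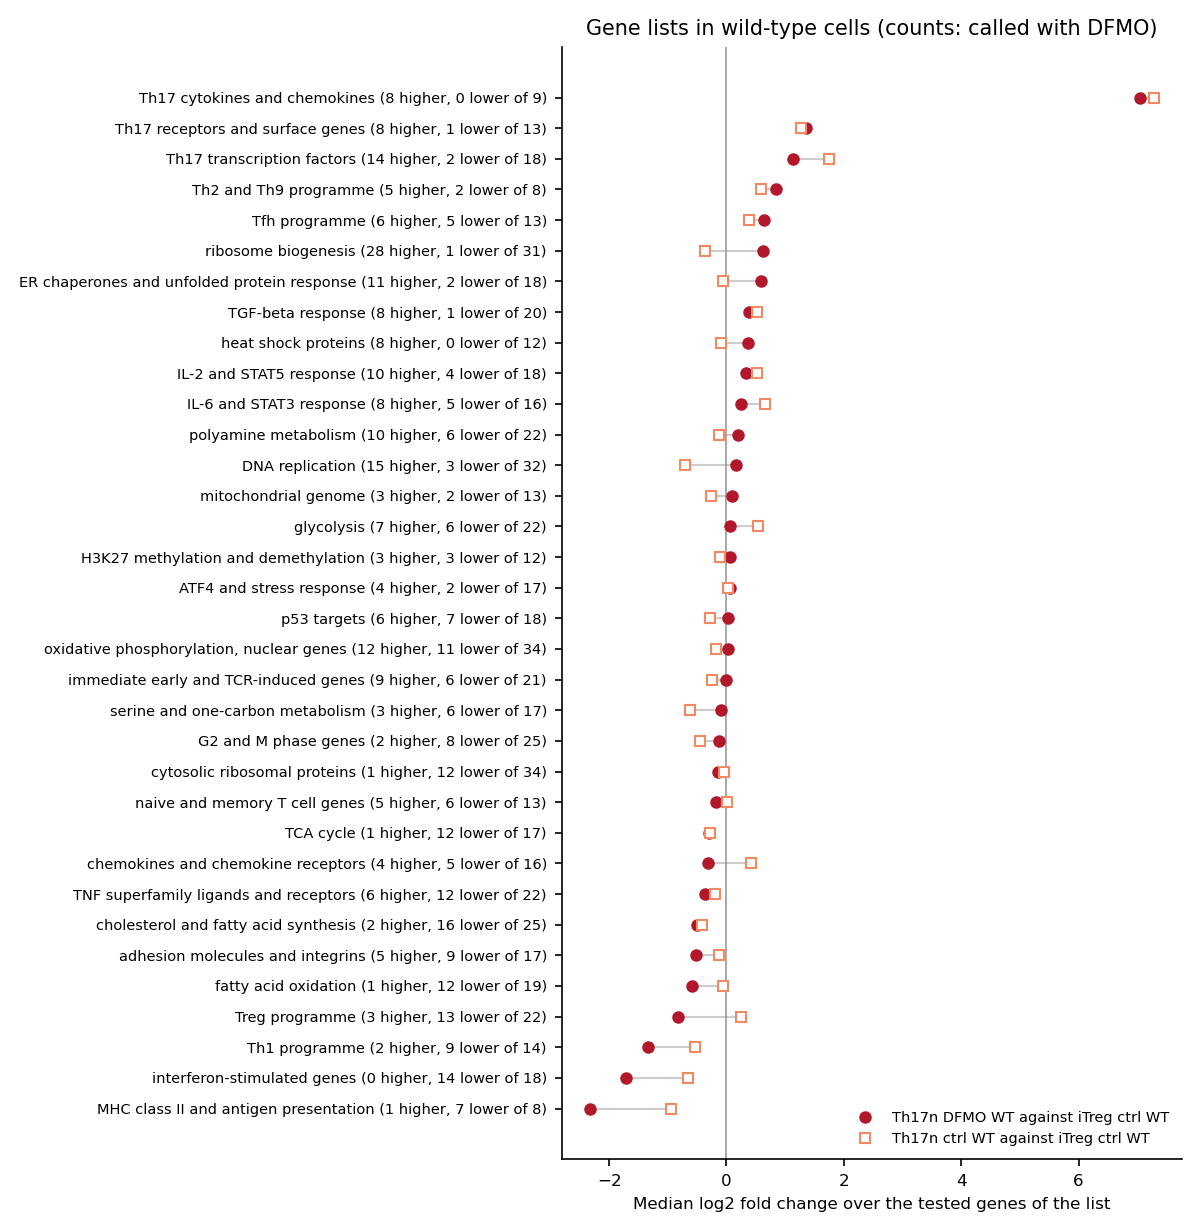
Median log2 fold change of each of 34 gene lists, for DFMO-treated Th17n against untreated iTreg cells (filled circles) and untreated Th17n against untreated iTreg cells (open squares), with the counts of members called higher and lower. The Th17 cytokines lie furthest to the right and the MHC class II genes furthest to the left, and the ribosome biogenesis median lies above 0 with DFMO and below 0 without it.

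Polyamine genes were divided. Of 26 listed, 22 were tested, 10 were higher, 6 were lower and 6 did not pass, where 23.6% of all genes were higher and 26.2% lower. Odc1, ornithine decarboxylase and the target of DFMO, stood at 147, 115, 153 and 201 CPM in DFMO-treated Th17n cells against 76.5, 106, 84.2 and 99 CPM in untreated iTreg cells (0.73 ± 0.13, adjusted p = 4.55e-05 in edgeR). Srm, spermidine synthase, stood at 377, 317, 441 and 427 CPM against 60.3, 56.5, 74.5 and 63.8 CPM (2.62 ± 0.14), and its groups lay far apart. Untreated Th17n cells had 37.9, 33.6, 44.9 and 51.3 CPM and DFMO-treated iTreg cells 541, 538, 696 and 344 CPM, so the sign was the opposite without DFMO (-0.60 ± 0.15) and at matched treatment (-0.44 ± 0.12). Amd1, which supplies the aminopropyl donor, and Mat2a, which makes S-adenosylmethionine, were higher by 0.94 ± 0.10 and 1.44 ± 0.11. Eif5a, the protein that spermidine modifies, was higher by 0.79 ± 0.06.

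Smox, spermine oxidase, was higher in Th17n cells with DFMO (2.22 ± 0.12) and without it (3.31 ± 0.12). The antizymes Oaz2 and Oaz1, which inhibit ornithine decarboxylase and polyamine uptake, were lower (-1.43 ± 0.11 and -0.92 ± 0.08), and Oaz2 was higher in untreated Th17n cells (0.39 ± 0.10) than in iTreg cells. Sat1 and Paox, which act in polyamine breakdown, were lower (-0.39 and -0.90), as were Aldh18a1, an enzyme of proline and ornithine synthesis (-0.34), and Mat2b, the regulatory partner of Mat2a (-0.32). Azin1, which counteracts the antizymes, was higher (0.98 ± 0.15).

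Kdm6b, the H3K27 demethylase that the series deletes, did not pass the test. It stood at 36, 55, 64 and 62.7 CPM in DFMO-treated Th17n cells against 38, 48.8, 45 and 41.5 CPM in untreated iTreg cells, overlapping groups, with a log2 fold change of 0.30 ± 0.13 and an adjusted p of 0.0557 in edgeR. Of 12 genes of H3K27 methylation, 3 were higher (Aebp2 0.75, Phf19 0.59 and Rbbp7 0.45, all partners of PRC2) and 3 lower (the demethylase Kdm6a -0.72, the methyltransferase Ezh1 -0.40 and the PRC2 partner Jarid2 -0.34), of which Ezh1 and Jarid2 lost their calls in 9 settings each. Both counts lay near the shares over all genes, 23.6% higher and 26.2% lower.

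Genes of cell growth were on opposite sides of iTreg levels with and without DFMO. Of 31 ribosome biogenesis genes tested of 32 listed, 28 were higher, 1 was lower and 2 did not pass in DFMO-treated Th17n against untreated iTreg cells (median 0.616). In untreated Th17n cells 1 was higher and 20 were lower against the same iTreg libraries (median -0.372), and at matched treatment 1 was higher and 14 were lower. Fbl (fibrillarin), the methyltransferase of ribosomal RNA, stood at 125, 122, 133 and 156 CPM in DFMO-treated Th17n cells against 28.3, 41.1, 43.4 and 25.1 CPM in untreated iTreg cells (1.97 ± 0.18), with 20.8, 28, 23 and 30.5 CPM in untreated Th17n cells and 163, 205, 228 and 98.7 CPM in DFMO-treated iTreg cells. Rrp12 and Nolc1, factors of ribosome assembly and nucleolar transport, were higher by 1.63 ± 0.11 and 0.93 ± 0.09, and Nop56, a snoRNP core protein whose locus overlaps Idh3b, by 0.74 ± 0.08. The lower one was Npm1, nucleophosmin (-0.17 ± 0.06), which lost its call in 10 settings.

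DNA replication genes were likewise divided. Of 32 tested, 15 were higher, 3 lower and 14 did not pass with DFMO (median 0.161), against 1 higher and 29 lower in untreated Th17n cells (median -0.708). Rrm2, a ribonucleotide reductase subunit, stood at 482, 493, 470.0 and 450.5 CPM in DFMO-treated Th17n cells against 266, 241, 255 and 252 CPM in untreated iTreg cells (0.90 ± 0.08), and at 167, 116, 128 and 148 CPM in untreated Th17n cells (-0.87 ± 0.08). Orc1 and Cdc6, which license origins, were higher (0.93 ± 0.14 and 0.82 ± 0.11), as was the flap nuclease Fen1 (0.57 ± 0.09). The lower ones were Pold1, Gins4 and Rfc5, parts of a polymerase, the replicative helicase and the clamp loader (-0.29, -0.25 and -0.20). Their calls were lost in 6 settings for Pold1, 14 for Gins4 and 18 for Rfc5, which changed sign with TPM (0.069). Among 25 G2 and M phase genes, 2 were higher (Birc5 0.57 and Ccna2 0.26) and 8 lower, led by Cenpa, a centromere histone (-0.54 ± 0.09), where 22 were lower in untreated Th17n cells.

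Fewer cytosolic ribosomal protein genes passed the test than did not. Of 34 tested, 12 were lower, 1 was higher and 21 did not pass in DFMO-treated Th17n against untreated iTreg cells (median -0.14), where 26.2% of all genes were lower and 49.7% were called. In KO animals 21 were lower and none higher (median -0.259), and in WT animals 32 were lower against DFMO-treated iTreg cells. Rps20 and Rps27a, of the small subunit, were lower (-0.41 ± 0.08 and -0.36 ± 0.06). The 1 higher gene was Rps2, at 5416, 5831, 6223 and 5977 CPM against 1621, 2270, 1983 and 961 CPM (1.80 ± 0.16), which has many near-identical pseudogenes, so its counts are uncertain. In KO animals Rps2 stood at 5032, 5516 and 5740 CPM in DFMO-treated Th17n cells and 4904, 5178 and 5629 CPM in untreated iTreg cells, without such a difference (0.05 ± 0.18).

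Central metabolism was split by pathway. Of 22 glycolysis genes, 7 were higher, 6 lower and 9 did not pass with DFMO (median 0.0683), against 19 higher and 1 lower in untreated Th17n cells (median 0.544). With DFMO, 23.6% of all genes were higher and 26.2% lower. Eno3, the muscle-type enolase, stood at 21.5, 33.7, 23.4 and 20.2 CPM in DFMO-treated Th17n cells against 190.3, 249.8, 204 and 263 CPM in untreated iTreg cells (-3.18 ± 0.13), and as low in untreated Th17n cells (-3.18 ± 0.13). Aldoc, an aldolase, stood at 28.6, 30.4, 25.5 and 29.6 CPM against 162, 106, 127 and 178 CPM (-2.31 ± 0.14), and untreated Th17n cells lay on the other side at 278, 348, 280.4 and 301 CPM (1.10 ± 0.11). The glucose transporter Slc2a1 and the hexokinase Hk2 were higher by 1.00 ± 0.09 and 1.10 ± 0.10, and Pfkm, Pdk1, Slc2a3 and Gpi1, other genes of glucose use, were lower, from -1.41 to -0.52.

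Genes of fatty acid oxidation and the TCA cycle were mostly lower in DFMO-treated Th17n than in untreated iTreg cells. Of 19 fatty acid oxidation genes, 12 were lower and 1 higher (median -0.583), and of 17 TCA cycle genes 12 were lower and 1 higher (median -0.302). Over all genes 26.2% were lower and 23.6% higher. In untreated Th17n cells the fatty acid list had 6 lower and 4 higher (median -0.0661) and the TCA list 8 lower and 1 higher (median -0.276). At matched treatment the fatty acid list had 5 lower and 1 higher (median -0.0727) and the TCA list 8 lower and 2 higher (median -0.103). Decr1, a reductase for unsaturated fatty acids, stood at 10.1, 13.4, 16.9 and 11.3 CPM in treated Th17n cells against 48.2, 40.7, 52.4 and 49.1 CPM in untreated iTreg cells (-1.88 ± 0.14), Eci1, which shifts their double bonds, was lower (-1.23 ± 0.10), as was Acads, a short-chain dehydrogenase (-0.99 ± 0.11). Slc25a20, the carnitine carrier, was the 1 higher gene (0.34 ± 0.13), and lost its call in 6 settings. In the TCA list the cycle enzymes Suclg2, Idh2 and Fh1 were lower (-1.05, -0.93 and -0.54) and Idh3a higher (0.28). Of 25 genes of cholesterol and fatty acid synthesis, 16 were lower and 2 higher (median -0.502), among them Hmgcs1, an early step of the mevalonate pathway (-1.40 ± 0.10), the desaturase Scd1 (-1.41 ± 0.10) and Dhcr7, a late step (-1.27 ± 0.10). Fasn, fatty acid synthase, was among the higher ones (0.76 ± 0.07). In untreated Th17n cells 17 of these 25 genes were lower and 1 higher (median -0.423), and at matched treatment 7 were lower and 3 higher (median -0.0332). The 34 nuclear genes of oxidative phosphorylation were divided, 12 higher and 11 lower (median 0.0233), against 1 higher and 17 lower in untreated Th17n cells.

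Interferon-stimulated genes were lower in DFMO-treated Th17n cells wherever they passed the test. Of 22 listed, 18 were tested, 14 were lower and none was higher, with 4 not passing (median -1.72, unchanged with Oas1a at its bound). Stat2, a subunit of the interferon-activated factor ISGF3, stood at 31, 33, 33.3 and 23.4 CPM in DFMO-treated Th17n cells against 64.9, 84.6, 63.1 and 76 CPM in untreated iTreg cells (-1.26 ± 0.12). Irf7, the amplifier of type I interferon whose locus overlaps Phrf1, stood at 1.06, 0, 0.26 and 0.538 CPM against 2.9, 27.9, 5.26 and 38.3 CPM (-5.07 ± 0.68). The iTreg libraries of animals 2 and 4 were high for Irf7 and those of animals 1 and 3 low. Isg15, a ubiquitin-like modifier, stood at 0.53, 1.98, 2.08 and 3.5 CPM against 2.9, 13.6, 1.58 and 12.5 CPM and its groups overlapped (-1.89 ± 0.48). Isg20, an exonuclease, and the guanylate-binding protein Gbp3 were lower (-4.31 ± 0.55 and -1.74 ± 0.25). Untreated Th17n cells had 7 of the 18 lower and none higher.

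The promoters of Isg15, Ifit1 and Stat2 are shown as members of this group that carry the interferon-stimulated response element. Windows are the 250 bases before the RefSeq start on GRCm38.p6, on the strand of the gene: Isg15 at chr4:156200819-156201068 (- strand), Ifit1 at chr19:34640639-34640888 (+ strand) and Stat2 at chr10:128270248-128270497 (+ strand). Capitals mark GAAA, any 2 bases and GAAA again, or the reverse with TTTC, searched on both strands with overlapping matches allowed.
Isg15: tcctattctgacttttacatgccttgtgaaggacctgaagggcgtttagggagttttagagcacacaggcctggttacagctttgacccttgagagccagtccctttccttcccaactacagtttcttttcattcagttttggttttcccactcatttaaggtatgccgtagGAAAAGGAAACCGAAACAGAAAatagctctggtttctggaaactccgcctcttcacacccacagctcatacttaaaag
Ifit1: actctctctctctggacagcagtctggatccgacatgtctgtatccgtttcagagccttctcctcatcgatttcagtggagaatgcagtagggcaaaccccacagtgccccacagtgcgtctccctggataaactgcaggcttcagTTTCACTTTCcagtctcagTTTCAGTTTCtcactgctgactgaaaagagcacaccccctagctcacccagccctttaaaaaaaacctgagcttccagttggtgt
Stat2: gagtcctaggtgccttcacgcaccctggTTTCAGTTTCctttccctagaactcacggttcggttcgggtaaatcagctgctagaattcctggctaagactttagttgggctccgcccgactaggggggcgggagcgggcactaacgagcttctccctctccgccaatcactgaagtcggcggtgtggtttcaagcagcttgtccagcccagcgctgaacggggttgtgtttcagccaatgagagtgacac
Isg15 holds 3 matches, Ifit1 2 and Stat2 1. Such a match occurs in 2.98% of all 32851 windows and in 10 of the 22 windows (45.5%) of the 17 interferon-stimulated genes that have one, 1 window each of Bst2, Gbp2, Gbp3, Ifit1, Ifit3, Isg15, Oas1a, Oas3, Rsad2 and Stat2. Of these, Gbp2 and Ifit3 did not pass the expression test and Rsad2 was not tested.

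Antigen presentation genes were lower too. Of 8 MHC class II genes tested of 10 listed, 7 were lower and 1 higher (median -2.33). In untreated Th17n cells 5 were lower and 1 higher (median -0.946), and at matched treatment 4 were lower and 1 higher (median -1.26). Cd74, the invariant chain, stood at 14.3, 6.83, 10.9 and 7.8 CPM in DFMO-treated Th17n cells against 90.5, 129.6, 122 and 166 CPM in untreated iTreg cells (-3.66 ± 0.21), and the protease Ctss at 35.2, 27.3, 36.1 and 28.5 CPM against 136, 170.0, 147 and 163 CPM (-2.27 ± 0.13). H2-Oa and H2-DMa, which control peptide loading, were lower (-2.85 ± 0.18 and -2.01 ± 0.12), and H2-DMa overlaps Brd2. H2-Ab1, a class II beta chain, was the higher one, at 60.7, 68, 71.3 and 75.9 CPM against 44.5, 36.8, 33.4 and 49.8 CPM (0.76 ± 0.13), and stood at 246, 366, 240.4 and 312 CPM in untreated Th17n cells and 6.39, 2.97, 2.41 and 5.21 CPM in DFMO-treated iTreg cells. The sums of B cell and dendritic cell markers given above were also lower in the DFMO-treated Th17n libraries, and their part in the results on class II and interferon genes was not tested.

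Large differences also lay outside these lists. Timp1, an inhibitor of metalloproteinases whose locus overlaps Syn1, stood at 376, 400.1, 446 and 436 CPM in DFMO-treated Th17n cells against 0.242, 0.395, 1.58 and 4.53 CPM in untreated iTreg cells (8.17 ± 0.27), with 1088, 1180, 1119 and 1197 CPM in untreated Th17n cells. The complement proteases C1s1 and C1s2 had 423 and 204 estimated counts in treated Th17n cells against 1 and 2, ratios of 413 (73.7 to 16300) and 99.6 (27.2 to 828). C1s1 and C1s2 are closely related copies, so reads may be split between them. Lbp, which binds lipopolysaccharide, stood at 24.1, 79.1, 45 and 47.4 CPM against 0.484, 0, 0.263 and 0.348 CPM (7.39 ± 0.42), the homeobox factor Lhx6 gave 213 estimated counts against 2, a ratio of 104 (28.4 to 864), and Gcnt2 and Gja5, a glycosyltransferase and a gap junction protein, were higher by 5.93 ± 0.34 and 5.75 ± 0.46.

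On the other side, the lipocalins Lcn10 and Lcn6 were at 0 counts in all 4 DFMO-treated Th17n libraries and had 604 and 280 in untreated iTreg cells, at least 206-fold and 95.6-fold lower. Car2 (carbonic anhydrase) stood at 0.53, 0.22, 0.26 and 0.269 CPM against 99.2, 34.8, 114 and 37.3 CPM (-7.73 ± 0.38), and Nkg7, a cytotoxic granule protein, at 1.32, 3.3, 2.6 and 1.08 CPM against 411, 128, 484 and 198 CPM (-7.08 ± 0.25). In iTreg cells Lcn10, Lcn6, Car2, Nkg7 and Gzmb were all highest in animals 1 and 3. Serpinb6b, a protease inhibitor, stood at 3.18, 4.4, 5.98 and 2.96 CPM against 254, 259, 230.0 and 257 CPM (-5.91 ± 0.16) with little spread among animals. The receptor kinase Kit gave 1 estimated count against 157 and Dapk2, a death-associated kinase, 3 against 323, which is 161 times (28.5 to 6390) and 110 times (37.4 to 538) more in iTreg cells. Xcl1, a chemokine, was at 0 against 118 counts, at least 40.3-fold lower. Ms4a4b, a membrane protein of T cells, was lower (-5.51 ± 0.28), as were the interferon-inducible Mndal and Ifi203, which overlap each other (-7.11 ± 0.38 and -5.47 ± 0.34), and the RNA editor Apobec1 gave 3 counts against 152.

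Genes that separate the cultures without DFMO were chosen in the KO animals, whose libraries do not enter the WT values. Over 880 genes at least 2-fold higher in untreated KO Th17n than in untreated KO iTreg cells, the mean log2 CPM difference from untreated iTreg cells in WT animals was 0.69 ± 0.0762 for DFMO-treated Th17n cells and 1.73 ± 0.112 for untreated Th17n cells (SD, n = 4 animals). The treated difference was 39.9% of the untreated one, 36.3% to 42.2% over animals. Over 621 genes at least 2-fold lower in untreated KO Th17n cells, it was -1.26 ± 0.106 with DFMO and -1.37 ± 0.156 without, and 91.6% remained (88.0% to 94.6%). That share was 70.1% over all 2144 genes called lower in KO, and 61.9% over them on the log2(TPM + 1) scale. On average the Th17n-high genes stood nearer to iTreg levels with DFMO in all 4 animals. Both differences share the untreated iTreg libraries. Against DFMO-treated iTreg cells, the mean difference of DFMO-treated Th17n cells was 1.21 ± 0.0434 over the 880 genes and -1.11 ± 0.0891 over the 621.

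By calls, 423 of the 880 Th17n-high genes were higher than in untreated iTreg cells with DFMO, 97 were lower and 360 did not pass, where 800 were higher in untreated Th17n cells. Of the 621 iTreg-high genes, 408 were lower, 37 were higher and 176 did not pass, where 499 were lower in untreated Th17n cells. Between DFMO-treated and untreated Th17n cells, 175 of the 621 were higher, 118 lower and 328 did not pass. At matched treatment, 589 of the 880 were higher and 9 lower, and 379 of the 621 were lower and 4 higher.

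Genes that DFMO changed in KO Th17n cells but that did not separate the untreated KO cultures lay away from iTreg levels in treated WT cells. Over 300 genes raised at least 2-fold by DFMO in KO Th17n cells and not called between untreated KO cultures, DFMO-treated WT Th17n cells lay 1.08 ± 0.131 above untreated iTreg cells, and untreated ones -0.132 ± 0.144 from them. Over 419 genes lowered by DFMO in the same way, the values were -1.0 ± 0.0873 with DFMO and 0.193 ± 0.0784 without. Against DFMO-treated iTreg cells the mean differences lay at 0.0774 ± 0.164 and 0.0627 ± 0.0635, near 0 when both cultures had received DFMO. Of the 300, 232 were higher and 2 lower than in untreated iTreg cells, and of the 419, 289 were lower and 1 higher. These gene sets were defined after seeing the data. Wherever the DFMO effect recurs in WT cells, their rule itself places them away from untreated iTreg levels with DFMO and near them without it. The values against untreated iTreg cells therefore show only that the DFMO effect in KO cells recurred in WT cells.

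**Figure D4:**
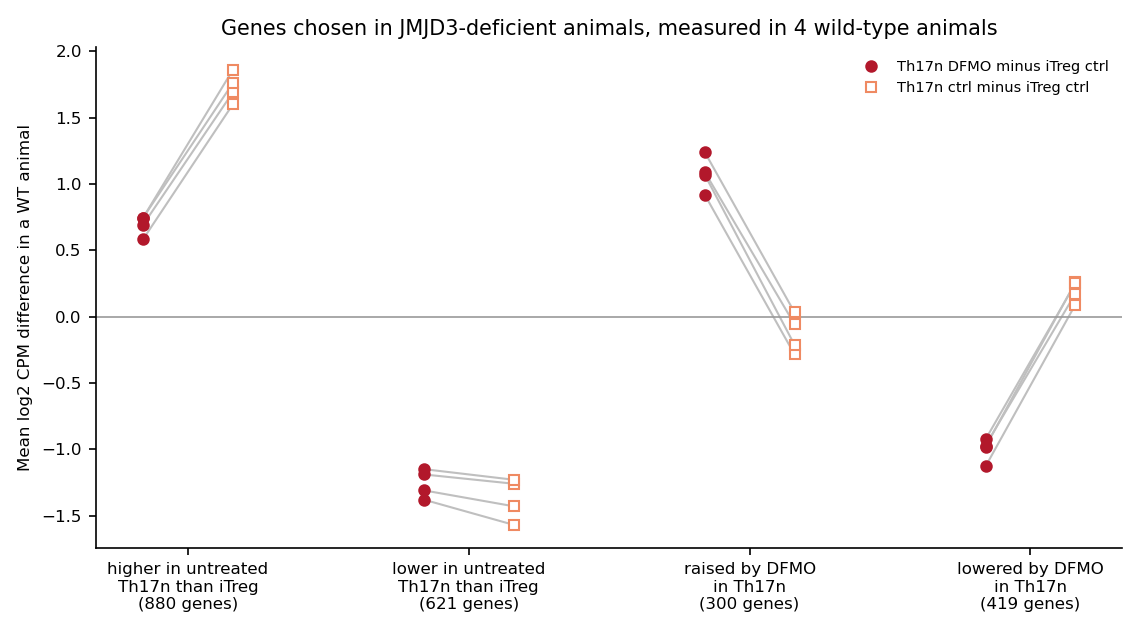
Mean log2 CPM difference from untreated iTreg cells of the same WT animal, for DFMO-treated and untreated Th17n cells, over 4 gene sets chosen in KO animals (880, 621, 300 and 419 genes); lines join the values of 1 animal. The Th17n-high set lies nearer to 0 with DFMO in each animal, and the iTreg-high set averages -1.26 with DFMO and -1.37 without. The DFMO-responsive sets lie away from 0 with DFMO, which the rule that chose them favours.

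The same comparison in KO animals shares no library with the WT one. Kdm6b stood at 24.3, 26.7 and 33 CPM in DFMO-treated Th17n cells and 31.1, 33.3 and 29.1 CPM in untreated iTreg cells of KO animals, each below every WT library of its own culture. The gene-level counts do not resolve the deleted exons. In KO animals 4913 genes differed (44.7%), 2394 higher (21.8%) and 2519 lower (22.9%). Of these, 3898 were called in WT in the same direction, 1887 higher and 2011 lower, which is 71.3% of the WT calls and 79.3% of the KO calls. In 14 genes called in both, the direction was opposite. Across the 10985 genes, which are not independent replicates, the log2 fold changes of KO and WT had a Pearson r of 0.831 and a Spearman rho of 0.799. Foxp3 in KO animals stood at 34.4, 37.1 and 33.3 CPM in DFMO-treated Th17n cells and 259, 343 and 314 CPM in untreated iTreg cells (-3.13 ± 0.19), and Il17f at 545, 626 and 620.1 CPM and 1.09, 0 and 1 CPM (9.61 ± 0.40).

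**Figure D5:**
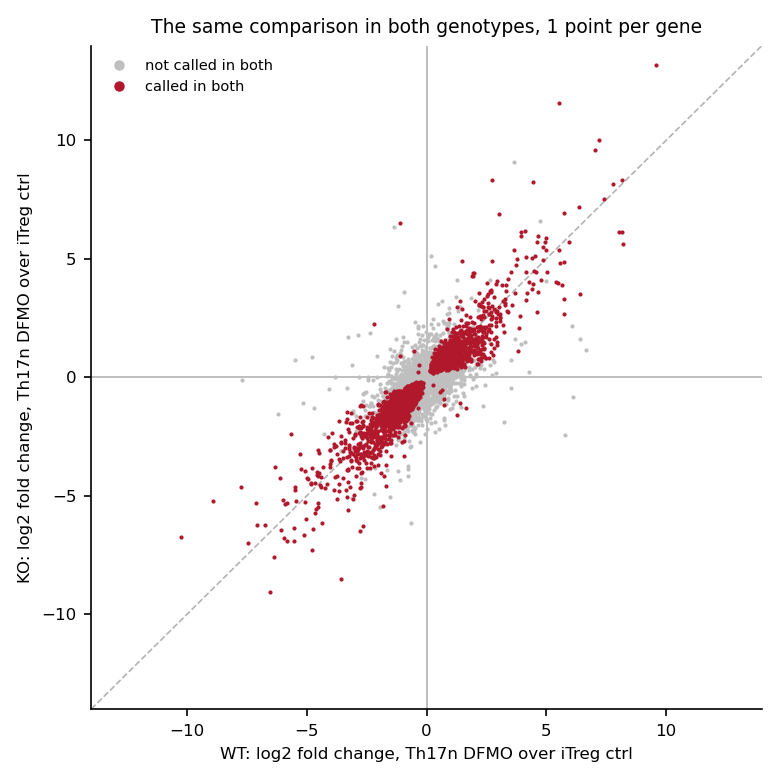
Log2 fold change of DFMO-treated Th17n against untreated iTreg cells in WT animals (x axis) and in KO animals (y axis), 1 point per gene. Red points are called in both genotypes, and nearly all of them lie in the same direction.

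The gap itself differed between genotypes in 142 genes by the interaction of genotype and culture (1.29% of genes tested). The log2 fold change, sign included, was higher in KO in 32 (0.291%) and lower in 110 (1%). Inhba, a subunit of activin, stood at 103, 91.8 and 106 CPM in DFMO-treated Th17n cells and 0, 0 and 0 CPM in untreated iTreg cells of KO animals, and at 168, 175, 153 and 179.5 CPM and 6.05, 2.77, 1.58 and 4.18 CPM in WT animals. Ly6a (Sca-1), a surface antigen of activated T cells, stood at 541, 432 and 603 CPM and 23.5, 7.82 and 13.7 CPM in KO animals, and at 369, 302, 452 and 278 CPM and 487, 185, 502 and 183 CPM in WT animals, where the groups overlapped. Tnfsf11 (RANKL), a TNF family ligand, was lower in DFMO-treated Th17n cells of KO animals (11.7, 12.9 and 16.6 CPM against 38, 67.9 and 24.1 CPM) and higher in those of WT animals (24.4, 18.5, 30.2 and 43.3 CPM against 9.44, 18.2, 11.1 and 11.5 CPM). Leaving out single libraries gave 75 to 219 genes in place of 142: 219 without the untreated iTreg library of WT animal 2, 88 without that of KO animal 1, and 75 and 92 without the treated Th17n libraries of KO animals 1 and 3.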

How the data were processed

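RNA from 28 libraries was sequenced as full-length, 75 bp paired reads, per the labels' protocols. The authors deposited an estimated count and a TPM value (abundance scaled for length and depth) for each of 20891 genes per library, made with kallisto on GRCm38 according to notes on processing by the submitters; which kallisto version is not given in the sources used here. All 20891 names matched GENCODE M21. Of the estimated counts, 67.2% were whole within 0.001, and all were rounded. Strand was not used, so overlapping or antisense genes cannot be told apart. Totals were 2226914 to 4759290 per library. Intervals and floors cover counting error only.

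Groups were taken from the labels. The edgeR 4.0.16 quasi-likelihood test (R 4.3.3) was fitted to all 28 libraries with animal as a block, TMM scaling and edgeR's filter on low counts, which left 10985 genes (15 residual degrees of freedom, common dispersion 0.012). P-values were Benjamini-Hochberg adjusted over all of them, with calls made below 0.05. Values after ± are standard errors beside log2 fold changes and standard deviations beside means over animals. Distances used log2 CPM with a prior count of 2. The fit was tested on simulated data. Libraries with the same animal number come from the same animal, per the labels; between DFMO-treated Th17n and untreated iTreg libraries the deviations of a same-animal pair correlated at -0.00435 to 0.117 (4 pairs), and those of different animals at -0.122 to 0.0434 (12 pairs). Each library is 1 culture. With animal as a block, p-values measure how far the differences between cultures varied from animal to animal, pooled over all 28 libraries.

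Members and gene lists were chosen with earlier results of these data known, and no list was tested as a set. Genes named were Foxp3, Il17a, Il17f, Il23r, Kdm6b and Odc1; some further genes of the rule are not reported here. Added to them were the 12 largest called each way with a mean of at least 10 CPM in the higher group and the same direction in all 4 animals, and the 5 largest each way for KO against WT. Each list added up to 4 called members of smallest adjusted p and those called against its majority. Other genes were chosen after their values were seen. Genes at 0 in a group are given a bound from a floor of 3 counts over the group. Genes of 1 to 3 counts are given a ratio with a 95% interval. Alternatives were RLE scaling, no filter, DESeq2 1.42.0, limma 3.58.1 on log2(TPM + 1) with a mean of at least 1 TPM, a GC correction, no block, the compared groups alone, and leaving out each library. Promoter windows are RefSeq's. Python 3.11.15, pandas 2.3.3, numpy 2.4.6 and scipy 1.17.1 were used.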

Additional observations from a re-analysis of the deposited data

Results flagged for a closer look

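Ifi203, an interferon-inducible gene that overlaps Mndal, stood at 2.12, 0.22, 1.3 and 0.538 CPM in DFMO-treated Th17n cells and 40.7, 71.7, 34.7 and 38 CPM in untreated iTreg cells of WT animals. The iTreg library of animal 2, at 71.7 CPM, lay far from the other 3 by Dixon's criterion, which flags about 1 in 20 groups by chance. 

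The difference between DFMO-treated Th17n and untreated iTreg cells itself differed between genotypes, by the interaction in edgeR, in the following named genes, as KO minus WT in log2. These values keep their sign, so they do not give the size of the difference in either genotype. KO minus WT was positive for Ly6c1, 7.65 ± 0.98 (adjusted p = 0.000118), and Ly6a, 4.91 ± 0.52 (adjusted p = 3.42e-06), both surface antigens of the Ly6 family. It was also positive for Plac8, 3.42 ± 0.61 (adjusted p = 0.00256), and the interferon-inducible GTPase Gvin1, 4.44 ± 0.92 (adjusted p = 0.00904). For Inhba it was 6.04 ± 1.37 (adjusted p = 0.0197), where the KO iTreg libraries were all at 0, so the value depends on the prior count and is no bound. It was negative for Tnfsf11, -2.87 ± 0.56 (adjusted p = 0.00546), and Rnf187, -2.70 ± 0.36 (adjusted p = 0.000118). It was also negative for Tob1, an antiproliferative factor, at -2.49 ± 0.43 (adjusted p = 0.00156), Arrdc4, an arrestin-like protein, at -2.41 ± 0.52 (adjusted p = 0.0132), and Cdhr3, a cadherin-related protein, at -2.39 ± 0.54 (adjusted p = 0.0197). Tnfsf11 was higher in DFMO-treated Th17n than in iTreg cells of WT animals and lower in those of KO animals. In untreated iTreg cells of WT animals Ly6a was higher in animals 1 and 3 than in animals 2 and 4, and Ly6c1 stood at 17.1, 6.43 and 19.4 CPM in treated Th17n and 0.362, 0 and 0 CPM in iTreg cells of KO animals, against 2.12, 2.2, 4.42 and 4.58 CPM and 7.26, 1.78, 15 and 6.97 CPM in WT animals. With so few counts in KO iTreg cells, the value of Ly6c1 is uncertain in size and is no bound. Its difference within WT animals lost its call in 6 alternative settings. Over all genes tested, this difference between genotypes had a Spearman rho of -0.216 with GC content, and the medians were -0.116 in the highest and 0.166 in the lowest decile of GC; the part of GC in these genes was not tested.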

How the results depend on the processing

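The count of genes called between DFMO-treated Th17n and untreated iTreg cells was 4355 with TPM and limma, 4761 with the compared groups alone, 5150 with DESeq2, 5326 without a filter, 5446 with RLE scaling and 5571 with a GC correction, and 4681 to 5139 when single libraries or animals were left out. Without the replicate block it was 5205 (2475 higher, 2730 lower), and for the difference between KO and WT 97 in place of 142. That difference gave 388 genes (129 higher, 259 lower) without a filter, 217 with DESeq2, 61 (29 higher, 32 lower) with TPM, and 75 to 219 without single libraries. At matched treatment the count was 2315 with the compared groups alone, 2946 to 3383 without single libraries, 2163 higher and 729 lower with TPM, where the median of all genes moved to 0.16, and 1874 higher and 1465 lower without a filter. Leaving out single libraries gave 4176 to 4463 genes for untreated Th17n against untreated iTreg cells, 5435 to 5635 for DFMO in Th17n cells, 4916 to 5291 for DFMO in iTreg cells (1388 higher and 3332 lower with TPM, median of all genes -0.197) and 4112 to 4435 in KO. The median distance per animal was 0.456 with a prior count of 0.5, 0.383 over genes of at least 10 CPM and 0.407 with TPM, and the root mean square 1.12, 0.83 and 0.82 in the same settings. Of the difference without DFMO, the share left was 35.0% for Th17n-high genes over all genes called in KO, and for iTreg-high genes 85.5% with TPM and 70.1% over all genes called in KO; without single animals the shares were 39.1% to 41.0% and 90.6% to 93.0%. Of 231 called genes among 233 named, 188 were called in every alternative run and 43 lost the call in at least 1, among them Bcl2, Ezh1, Gins4, Ikzf1, Jarid2, Ltbp3, Mat2b, Nfkbiz, Npm1, Phf19, Pim1, Pold1, Prf1, Slc25a20, Slc2a3, Tnfrsf1b and Xbp1. Rfc5 changed sign with TPM (0.069). The cause of these changes was not tested. Genes of few counts, such as Il17a, Il22 and Il10 in iTreg cells, are limited by depth.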

Other observations

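Protein folding genes were mostly higher in DFMO-treated Th17n than in untreated iTreg cells. Of 18 genes of endoplasmic reticulum chaperones and the unfolded protein response, 11 were higher and 2 lower (median 0.586), against 4 higher and 2 lower in untreated Th17n cells. Hspa5 (BiP), the main chaperone of that compartment, stood at 1010, 1029, 956 and 916 CPM in DFMO-treated Th17n cells against 408, 481, 439.9 and 552 CPM in untreated iTreg cells (1.07 ± 0.09, log2 fold change). Dnajb11, its partner, and Manf, a secreted stress factor, were higher by 1.58 ± 0.16 and 1.19 ± 0.09, and Sel1l and Xbp1, parts of protein disposal and its signalling, were lower (-0.34 and -0.32), though Xbp1 lost its call in 12 alternative settings. Of 12 heat shock genes tested of 13 listed, 8 were higher and none lower (median 0.358), led by the cochaperones Hsph1 (0.90 ± 0.08) and Dnaja1 (0.56 ± 0.07). In untreated Th17n cells 1 was higher and 4 were lower. Of 17 ATF4 and stress genes tested of 18 listed, 4 were higher and 2 lower (median 0.0551). Neither count exceeded its share over all genes, 23.6% higher and 26.2% lower. Atf3, a stress-induced factor, stood at 63.6, 51.8, 53.8 and 73.5 CPM against 16.2, 18.8, 22.1 and 22.3 CPM (1.61 ± 0.14), Cebpb was at 44 estimated counts against 0, at least 14.3-fold higher, and Asns, asparagine synthetase, was lower (-0.71 ± 0.08). Of 18 p53 targets tested of 19 listed, 6 were higher and 7 lower (median 0.0325), with Phlda3, an Akt inhibitor, at 2.02 ± 0.36 and Sesn1, a stress-induced sestrin, at -2.47 ± 0.15. Of 17 serine and one-carbon genes, 3 were higher and 6 lower (median -0.0908), against 1 higher and 13 lower without DFMO. Phgdh, the first step of serine synthesis, was lower (-0.82 ± 0.08) and Pfas, a step of purine synthesis, higher (0.72 ± 0.08). Of the 13 genes of the mitochondrial genome, 3 were higher and 2 lower (median 0.0872), again no more than the shares over all genes. Among them were mt-Cytb at 0.82 ± 0.13 and mt-Co1 at -0.95 ± 0.14.

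Surface and signalling genes were divided. Of 22 TNF superfamily genes, 12 were lower and 6 higher (median -0.365). The death ligands Tnfsf10 (TRAIL) and Fasl were lower (-3.15 ± 0.32 and -4.53 ± 0.47), as were Cd70 (-3.74 ± 0.61) and its receptor Cd27 (-1.27 ± 0.10), whose locus overlaps Vamp1. Tnfrsf8 (CD30) and Tnfrsf25 (DR3) were higher (2.66 ± 0.30 and 1.11 ± 0.12). Of 16 chemokine genes tested of 22 listed, 4 were higher and 5 lower (median -0.317, unchanged with Xcl1 at its bound), with Ccl5, a chemokine of cytotoxic cells, at 0.265, 0.44, 1.3 and 0.269 CPM in DFMO-treated Th17n cells against 5.08, 10.7, 3.95 and 9.76 CPM in untreated iTreg cells (-3.59 ± 0.54). The chemokine counts lay near the shares over all genes, 23.6% higher and 26.2% lower. Of 17 adhesion genes tested of 20 listed, 9 were lower and 5 higher (median -0.526). The integrin chain Itga4 stood at 11.4, 11.4, 9.1 and 8.61 CPM against 55.4, 67.2, 35.8 and 46.3 CPM (-2.32 ± 0.17), and its partner Itgb1 at 96.2, 104, 101 and 148 CPM against 30.3, 29.4, 29.5 and 17.1 CPM (2.11 ± 0.25), so partner chains differed in opposite directions. Of 13 naive and memory genes tested of 14 listed, 5 were higher and 6 lower (median -0.172). Bach2, a repressor of effector genes, was higher (1.35 ± 0.07), and Cd44, an adhesion receptor of activated T cells, was lower (-1.09 ± 0.10). Of 21 immediate early genes tested of 22 listed, 9 were higher and 6 lower (median -0.00982), with Ier2 and Egr2 higher (2.12 ± 0.14 and 2.35 ± 0.16) and Nr4a3, an orphan nuclear receptor, lower (-1.59 ± 0.12).

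Other cell type markers were low. Macrophage markers summed to 1.33 to 3.12 CPM in DFMO-treated Th17n libraries and 3.56 to 6.97 CPM in untreated iTreg libraries, and neutrophil markers to 8.81 to 13.7 CPM and 4.12 to 15.3 CPM.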
